A study of Mus musculus with 24 samples.

Results

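The transcripts of 8 complement genes, out of 23420 gene symbols counted, were followed through mouse bone marrow-derived macrophages (BMDMs). They were chosen by symbol, with earlier results of these data known: C1qa, C1qb, C1qc, C3, Cfb, Cfp, C3ar1 and C5ar1. The study asked what the TET dioxygenases, which oxidise 5-methylcytosine in DNA, and the glycosylase TDG, which removes some of the oxidised bases, do in immune cells, and sequenced polyadenylated RNA from 16 BMDM and 8 Th2 libraries. The 16 BMDM libraries formed 8 groups of 2, and nothing in the labels said whether the 2 libraries of a group came from separate mice. The p-values below therefore measure the spread between libraries, which may be technical in part. In WT of the Tet cohort Xist, the RNA of the inactive X chromosome, was counted in replicate 2 and not in replicate 1 at both times, so those replicates did not come from the same mouse.

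In the Tdg cohort, TDG iKO BMDMs came from mice with floxed alleles of Tdg (Tdg fl/fl), and in the Tet cohort TET iTKO BMDMs came from mice with floxed alleles of Tet1, Tet2 and Tet3 (fl/fl at each). Each cohort had WT libraries of its own. All mice were C57BL/6 and 8 to 16 weeks old. Deletion was driven by CreERT2, a Cre recombinase that tamoxifen switches on, expressed in cells of many types, so it was not limited to macrophages. Control mice were given tamoxifen too, and whether they carried floxed or reporter alleles is not stated in the sources used here. The Tet line carried a YFP reporter and the Tdg line a GFP and mCherry reporter at Rosa26 behind a stop cassette that Cre removes. Marrow cells were grown for 4 days in medium conditioned by L929 cells and for 2 days more with added M-CSF, the growth factor of macrophages, and adherent cells were used. They were unstimulated (0 h) or stimulated for 6 h with 10 ng/ml of Kdo2-lipid A (KLA), the part of bacterial lipopolysaccharide that Toll-like receptor 4 recognises. Counts per gene do not resolve the deleted exons, and the deletion was not checked here.

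Complement is a cascade of proteins that tags microbes and dying cells for removal. C1q, built from the products of C1qa, C1qb and C1qc, starts the classical pathway, and macrophages are a major source of it. All pathways converge on the cleavage of C3. In the alternative pathway factor B, encoded by Cfb, binds the larger C3 fragment to form the enzyme that cleaves more C3, and properdin, encoded by Cfp, holds that enzyme together. The small fragments released from C3 and C5 act on cells through the receptors encoded by C3ar1 and C5ar1.

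The 3 C1q genes lie side by side on chromosome 4 within 18675 bases, all on the minus strand (mm9, the build of the deposited counts, with positions from the GENCODE vM1 gene models used here). C1qb spans chr4:136436044-136442102, C1qc chr4:136445719-136448980 and C1qa chr4:136451832-136454718, with 3616 bases between the first pair of genes and 2851 between the second. C3 (chr17:57343397-57367559) and Cfb (chr17:34993319-34999463) lie far apart on chromosome 17. Cfp is on chromosome X (chrX:20502580-20508681), C3ar1 on chromosome 6 (chr6:122797156-122806179) and C5ar1 on chromosome 7 (chr7:16832092-16844889). An annotated same-strand model, Gm20547, shares 2246 exon bases with Cfb and had no row of its own in the deposited tables, so the Cfb counts depend on how such pairs were assigned.

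The sequences before the annotated start are shown for the members with a table entry whose difference between TET iTKO and WT at 6 h passed the threshold in both tests used (C1qb, C1qc, C3 and C5ar1), because the C1q genes and C3 moved in opposite directions. They are the 250 bases upstream of the start, 5′ to 3′ on the minus strand, from RefSeq on GRCm38.p6, so their coordinates are not those of mm9. The table held 6 of the 8 members and none for C1qa or Cfb. Capitals mark matches on either strand to 3 short motifs chosen after the sequences were seen, none overlapping another: GAGGAA (core of the PU.1 site), TTGCGNAA (C/EBP) and TGANTCA (AP-1). Longer loose motifs for NF-kB and interferon regulatory factors were also searched and are not shown.
C1qb, chr4:136886201-136886450: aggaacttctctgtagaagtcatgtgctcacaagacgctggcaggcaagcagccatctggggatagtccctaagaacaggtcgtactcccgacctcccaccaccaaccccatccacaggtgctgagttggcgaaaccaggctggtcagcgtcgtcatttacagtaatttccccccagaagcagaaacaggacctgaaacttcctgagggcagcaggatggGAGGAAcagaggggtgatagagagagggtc
C1qc, chr4:136892915-136893164: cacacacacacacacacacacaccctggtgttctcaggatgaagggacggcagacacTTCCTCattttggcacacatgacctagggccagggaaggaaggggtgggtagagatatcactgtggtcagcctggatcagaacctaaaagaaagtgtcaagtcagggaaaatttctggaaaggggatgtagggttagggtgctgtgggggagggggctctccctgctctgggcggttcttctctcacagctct
C3, chr17:57228137-57228386: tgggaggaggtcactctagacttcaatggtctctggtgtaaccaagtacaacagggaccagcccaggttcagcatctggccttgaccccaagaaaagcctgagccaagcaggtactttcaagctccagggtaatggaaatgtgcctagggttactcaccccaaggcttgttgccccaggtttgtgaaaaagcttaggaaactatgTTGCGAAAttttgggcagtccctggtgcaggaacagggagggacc
C5ar1, chr7:16259339-16259588: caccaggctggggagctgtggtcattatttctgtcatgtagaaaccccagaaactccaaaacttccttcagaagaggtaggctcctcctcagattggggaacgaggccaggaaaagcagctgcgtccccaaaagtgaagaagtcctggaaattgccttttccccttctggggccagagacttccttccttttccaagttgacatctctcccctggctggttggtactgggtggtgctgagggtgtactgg

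C1qb and C1qc each held 1 match to the PU.1 core. In C1qb it was GAGGAA at 30 to 25 bases before the start, and in C1qc the reverse complement TTCCTC at 193 to 188 bases. This motif occurred in 23.3% of the 32851 windows of the same length in the table. Because the motifs were chosen after the sequences were seen, this share and those below describe the windows and do not test a match. C3 held TTGCGAAA at 45 to 38 bases before the start, and 0.670% of all windows held a match to that motif. C5ar1 held no match to any of the 3, and the AP-1 letters, present in 6.75% of all windows, matched in none of the 4 shown. They matched in C3ar1, as TGACTCA at 22 to 16 bases before the start.

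Assigned counts ranged from 4982950 to 19405606 in the Tdg cohort and from 13145625 to 21503302 in the Tet cohort, and 3 counts, the floor used here, were at most 6.02e-05% of a library. Counts were scaled to normalised counts by the median-of-ratios method within each cohort, so values of different cohorts are not on a common scale. Replicates differed more in the Tdg cohort, where the mean chi-square per gene between the libraries of a group was 37.4 to 80.6 against 10.9 to 25.2 in the Tet cohort. The macrophage markers Csf1r, Emr1 (Adgre1), Cd68, Itgam, Mertk, Fcgr1, Lyz2 and Mrc1 were all counted in each library, with a summed level of 21432 to 29013 CPM (counts scaled to a common library total). Of the markers of other cells, the granulocyte and precursor list of 12 genes, with Ly6g not among the gene symbols, summed to 30 to 632 CPM, and the dendritic, lymphocyte and stromal lists to at most 77.4 CPM each.

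All 8 members were well above the floor in every BMDM library. Together they took 0.841% to 1.11% of the counts. Levels of different genes were compared as TPM (counts per exon base, scaled to one total over all genes). In unstimulated WT BMDMs of the Tet cohort C1qb had the highest level of the 8 at 4041 ± 307 TPM (SD, n = 2), and C1qa followed at 2564 ± 259. Cfb stood at 1954 ± 26, C1qc at 1545 ± 193, C3ar1 at 1044 ± 70.2, Cfp at 865 ± 51.5, C3 at 566 ± 39.9 and C5ar1 at 508 ± 10.1. Each gap in this order exceeded the larger SD of its neighbours. In the WT BMDMs of the Tdg cohort the order began with C1qb at 4845 ± 782 TPM and ended with C3 at 220 ± 0.440, and C1qa and C1qc, C3ar1 and Cfb, and Cfb and Cfp did not differ by more than the larger SD. With coding length in place of exon length C1qb remained first in both cohorts, at 2261 and 2679, whereas C1qc (1578 and 1782) then stood above C1qa (1416 and 1513). More of the order changed in the Tet cohort, where Cfb (912) then stood below C3ar1 (1226), and C5ar1 (484) above Cfp (421) and C3 (227). In the Tdg cohort C5ar1 (437) then stood above Cfp (415).

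**Figure D1:**
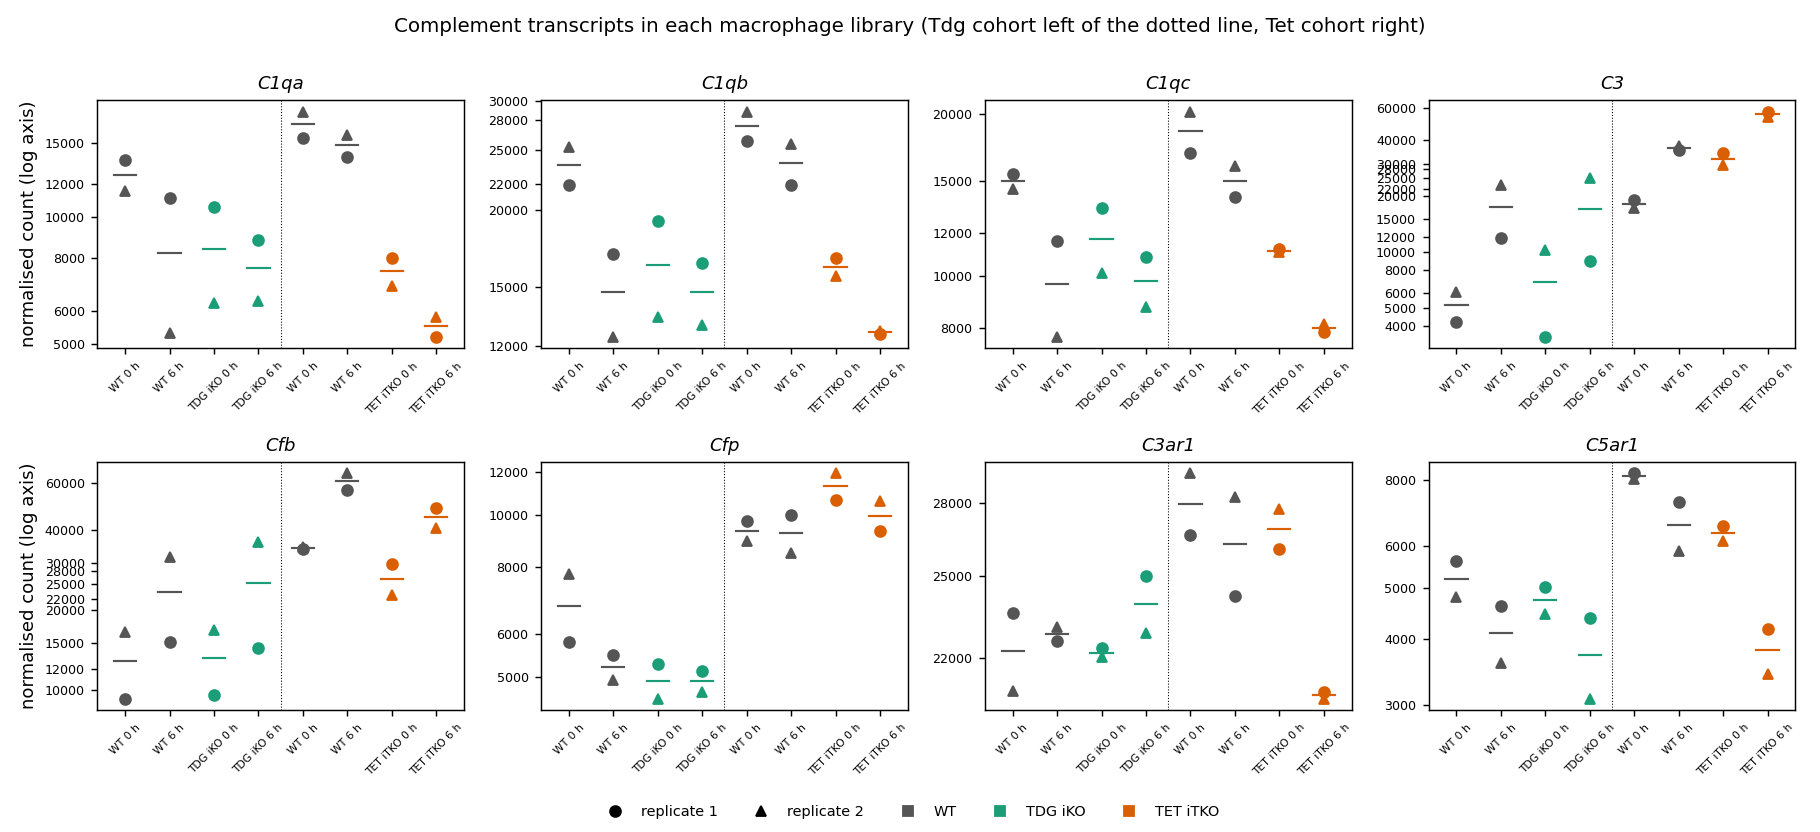
Normalised counts of the 8 complement genes (log axis) in each of the 16 macrophage libraries, by genotype and hours of KLA, with circles for replicate 1, triangles for replicate 2 and a bar for the mean of each group. In the Tet cohort the C1q genes of TET iTKO lie below all WT libraries and C3 lies above WT at each time, and in the Tdg cohort the replicates of a group stand far apart for C3 and Cfb.

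In the Tet cohort most members differed between genotypes. In unstimulated cells 5 of the 8 passed the DESeq2 threshold (adjusted p under 0.05): C3 was higher in TET iTKO, and C1qa, C1qb, C1qc and Cfb were lower. Of all genes tested 7.56% passed, 4.42% higher and 3.15% lower. At 6 h of KLA 7 of the 8 passed, C3 again higher and C1qa, C1qb, C1qc, C3ar1, C5ar1 and Cfb lower, against 6.45% of all genes, 3.16% higher and 3.28% lower. The median log2 fold change of the 8 was -0.37 at 0 h and -0.62 at 6 h, and that of all genes tested 0.0081 and -0.0011. Because the members were chosen with earlier results known, these counts and medians describe the 8 and do not test them as a set. In the Tdg cohort 0 of the 8 passed between TDG iKO and WT at either time. There 0 of all 15026 genes tested passed with DESeq2 (percent called 0 at both times), and edgeR called 0 as well. With DESeq2 265 genes at 0 h and 34 at 6 h had an unadjusted p under 0.05. With the replicate number as a block DESeq2 called 4 genes at 0 h (0.0266%) and 0 at 6 h. The fit of all 16 libraries called 2 (0.0127%) and 1 (0.00635%), and no member was called in either setting.

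More members passed under KLA in TET iTKO than in WT, although the difference of the 2 responses passed for none of the 8 (0.429% of all genes). In WT BMDMs of the Tet cohort 3 of the 8 passed (C3 and Cfb higher, C1qc lower), where 23.6% of all genes did, 12.8% higher and 10.8% lower. In TET iTKO 7 passed (C3 and Cfb higher, the C1q genes, C3ar1 and C5ar1 lower), where 24.7% of all genes did, 13.0% higher and 11.7% lower. In the Tdg cohort C3 alone passed in WT (8.73% of all genes, 5.35% higher and 3.37% lower) and 0 members passed in TDG iKO (6.95%). With the replicate number as a block, which the Tdg cohort calls for because same-numbered libraries deviated together there in the 4 pairs of groups compared, 5 members passed in WT and 2 in TDG iKO. Calls also rose over all genes under the block, to 15.7% in WT and 11.9% in TDG iKO. In the Tet cohort, with the replicate number nested in genotype as a block, 5 members passed in WT (26.8% of all genes) and 7 in TET iTKO (26.2%). Under that block the difference of the 2 responses passed for 1 member, C5ar1 (2.51% of all genes).

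C1qa, which encodes the A chain of C1q, had the largest fall in TET iTKO of the 8 members at both times. At 0 h its normalised counts were 15400.0 and 17793 in WT replicates 1 and 2 and 8027 and 6861 in TET iTKO, 0.448 of the WT level, a log2 fold change of -1.16 ± 0.12 (adjusted p 7.35e-19 by DESeq2), where ± marks the SE of the fit here and for the log2 changes that follow. At 6 h they were 13923 and 15675 in WT and 5213 and 5814 in TET iTKO, 0.373 of the WT level, a log2 fold change of -1.42 ± 0.12 (adjusted p 6.81e-28 by DESeq2). The lowest WT library was above the highest TET iTKO library at both times. Here and below, such a lack of overlap only describes groups of 2 libraries, and its share over all genes was not counted.

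The B and C chains moved with the A chain, by less. C1qb had 25878 and 28853 normalised counts in WT and 16712 and 15604 in TET iTKO at 0 h, a log2 fold change of -0.76 ± 0.11 (adjusted p 4.08e-10 by DESeq2). At 6 h the counts of C1qb were 21948 and 25579 in WT and 12571 and 12733 in TET iTKO, a change of -0.91 ± 0.11 (adjusted p 3.16e-14 by DESeq2). The groups did not overlap at either time. C1qc had 16914 and 20223 in WT and 11213 and 11086 in TET iTKO at 0 h and 14044 and 15989 in WT and 7871 and 8130.2 in TET iTKO at 6 h, with changes of -0.74 and -0.91 (SE 0.11 each, DESeq2 adjusted p 9.77e-09 and 5.4e-13). Its groups did not overlap either. For the 3 C1q genes edgeR's adjusted p was at most 0.00408 at 0 h and 0.00253 at 6 h, and leaving out any library of the Tet comparison kept the calls.

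The ratio of the chains also differed, as a description without a test. The ratio of C1qa to C1qb counts per exon base was 0.623 and 0.645 in WT and 0.502 and 0.460 in TET iTKO at 0 h, and 0.664 and 0.641 against 0.434 and 0.478 at 6 h, so the 4 TET iTKO libraries were below the 4 WT libraries. The same ratio in the Tdg cohort was 0.564 to 0.688 in the replicate 1 libraries and 0.448 to 0.510 in the replicate 2 libraries of both genotypes. The ratio of C1qc to C1qb stayed between 0.324 and 0.425 over all 16 libraries.

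Markers of macrophages and of other cells also moved with the TET genotype. Of the 8 macrophage markers, 4 fell and 1 (Itgam) rose at 0 h and 5 fell at 6 h (DESeq2). Their summed level was 23228 and 23259 CPM in TET iTKO against 26462 and 27733 in WT at 0 h. At 6 h it was 21779 and 22473 CPM against 25568 and 27294. Lyz2 alone gave 11963 to 19058 CPM over the BMDM libraries, the larger part of the sum. Emr1, Csf1r and Itgam had higher group means in TET iTKO at both times, for Emr1 51902 normalised counts against 45826 in WT at 0 h. The means of Cd68, Mertk, Fcgr1, Lyz2 and Mrc1 were lower in TET iTKO at both times. The granulocyte and precursor list summed to 84.5 and 202 CPM in TET iTKO against 36.6 and 66.1 in WT at 0 h and to 89.7 and 154 against 42.1 and 45.8 at 6 h. The stromal list (Col1a1, Col1a2, Pdgfra, Pdgfrb and Dcn) summed to 33.6 and 38.1 CPM against 10.8 and 13.6 at 0 h and to 65.6 and 77.4 against 19.9 and 21.8 at 6 h. Of the low lists, 2 lymphocyte markers rose at 0 h and 1 at 6 h, of 4 with an adjusted p, and 1 dendritic marker rose at each time, of 4 and 3. Their summed levels overlapped between genotypes, at 17.8 to 34.7 CPM in TET iTKO and 13.6 to 27.8 in WT for lymphocytes and 5.86 to 11.6 against 6.72 to 10.2 for dendritic cells. The part of these shifts in the changes of the members was not tested, and in bulk RNA fewer cells of a type and less RNA per cell cannot be told apart.

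KLA lowered the C1q genes in TET iTKO, and in WT of the Tet cohort their changes were also negative but smaller. The response in TET iTKO differed from that in WT by -0.27 (SE 0.17) for C1qa, -0.15 (SE 0.15) for C1qb and -0.17 (SE 0.16) for C1qc. None of these differences passed, so the falls are not shown to be particular to TET iTKO. From 0 h to 6 h in TET iTKO the log2 changes were -0.43 ± 0.12 (adjusted p 0.00242 by DESeq2) for C1qa, -0.35 ± 0.11 (adjusted p 0.00652 by DESeq2) for C1qb and -0.48 ± 0.11 (adjusted p 0.000199 by DESeq2) for C1qc. All TET iTKO libraries at 6 h were below those at 0 h for each of them. Without either replicate 1 library the calls of C1qa and C1qb in TET iTKO were lost, with changes of -0.32 to -0.36 and -0.30 to -0.35 and DESeq2 adjusted p of up to 0.152 and 0.142. In WT of the Tet cohort the change of C1qc was -0.31 ± 0.11 (adjusted p 0.0305 by DESeq2), not called by edgeR (adjusted p 0.0606), and those of C1qa (-0.17) and C1qb (-0.20) did not pass. With the replicate number nested in genotype as a block, C1qb passed in WT too (DESeq2 adjusted p 0.0163). The C1qc call in WT was lost without WT replicate 1 at 6 h (change -0.21, DESeq2 adjusted p 0.275) and without WT replicate 2 at 0 h (change -0.17, adjusted p 0.513).

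The C1q genes of the Tdg cohort had large differences between replicates. C1qa had 13629.8 and 11517 normalised counts in WT and 10601 and 6252 in TDG iKO at 0 h, and 11128 and 5329 in WT and 8829 and 6330.2 in TDG iKO at 6 h. TDG iKO was below WT without overlap at 0 h, and at 6 h the groups overlapped. The log2 difference at 0 h was -0.58 ± 0.43 (adjusted p 1.00 by DESeq2), with a 95% interval of -1.41 to 0.26. C1qb (-0.53, SE 0.32) and C1qc (-0.35, SE 0.32) also had lower TDG iKO libraries without overlap at 0 h and did not pass (DESeq2 adjusted p 1.00 for both). For C1qa, C1qb and C1qc the 0 h differences were -0.36, -0.19 and -0.21 within replicate 1. Within replicate 2 they were -0.88, -0.915 and -0.52. WT replicate 2 at 0 h had the fewest assigned counts of the BMDM libraries (4982950). Replicate 2 of each group had less C1qa than replicate 1, by log2 differences of -1.06 to -0.24, and replicate 2 had more C3 (0.53 to 1.55) and Cfb (0.81 to 1.33) in each. The granulocyte and precursor markers separated the same libraries, at 200 to 632 CPM in replicate 1 and 30 to 46 CPM in replicate 2, and their part in these differences was not tested.

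The KLA changes of the C1q genes in WT of the Tdg cohort did not pass in the fit of that cohort without a block. They were -0.61 for C1qa, -0.68 for C1qb and -0.63 for C1qc (DESeq2 adjusted p 0.439, 0.19 and 0.241), and with the replicate block the adjusted p values were 0.0459, 0.0331 and 0.0272. C1qb and C1qc also passed in the fit of all 16 libraries (-0.69 and -0.64, DESeq2 adjusted p 0.0125 and 0.0242). Within replicate 2 the C1q genes changed by -0.91 to -1.11 on the log2 scale, and within replicate 1 by -0.29 to -0.41. WT replicate 2 at 0 h had the fewest assigned counts of the BMDM libraries (4982950) and the lowest share of pairs assigned (53.4%). In TDG iKO the changes were -0.15, -0.15 and -0.26 in the same order and did not pass with or without the block.

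**Figure D2:**
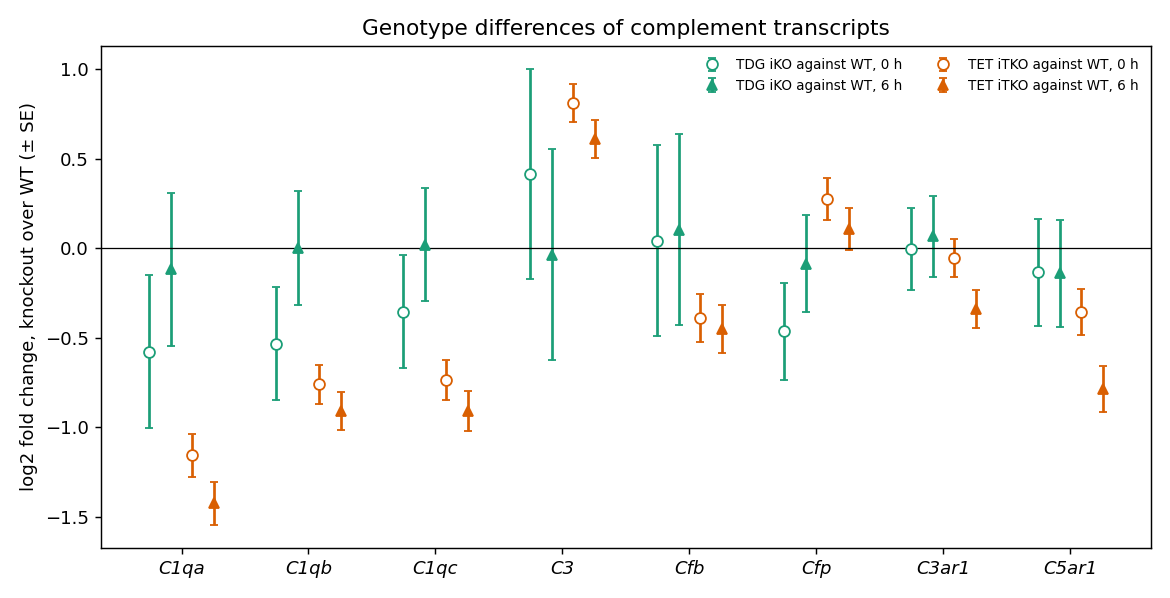
Log2 fold change of each complement gene in knockout over WT BMDMs (vertical axis), with the SE from the DESeq2 fit as bars, for TDG iKO (green) and TET iTKO (orange) at 0 h (open circles) and 6 h (filled triangles). The C1q genes lie between -0.74 and -1.42 in TET iTKO, C3 lies at 0.81 and 0.61, and none of the TDG iKO values passed the threshold.

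C3, the central component of the cascade, went the other way in TET iTKO. At 0 h it had 18976 and 17192 normalised counts in WT and 34026 and 29403 in TET iTKO, 1.75-fold higher, a log2 fold change of 0.81 ± 0.11 (adjusted p 7.11e-12 by DESeq2). At 6 h it had 35415 and 37174 in WT and 57237 and 53766 in TET iTKO, a change of 0.61 ± 0.11 (adjusted p 1.03e-06 by DESeq2). The groups did not overlap at either time, and edgeR called both (adjusted p 0.00183 and 0.01). Both unstimulated TET iTKO libraries were above both unstimulated WT libraries and below both stimulated WT libraries. In the fit of all 16 BMDM libraries, whose spread includes the Tdg cohort, the C3 changes were 0.81 and 0.62 and did not pass (DESeq2 adjusted p 0.818 and 1.00), whereas the 3 C1q genes passed there at both times.

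KLA raised C3 in both genotypes of the Tet cohort. The rise was 2.01-fold in WT, a log2 fold change of 1.01 ± 0.11 (adjusted p 1.11e-19 by DESeq2), and 1.75-fold in TET iTKO, a change of 0.81 ± 0.11 (adjusted p 6.31e-13 by DESeq2). Each 6 h library was above both 0 h libraries of its genotype.

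C3 also had the largest KLA change of the 8 members in the Tdg cohort, from replicates that started far apart. WT had 4211 and 6089 normalised counts at 0 h and 11937 and 23028 at 6 h, a log2 change of 1.76 ± 0.59 (adjusted p 0.0346 by DESeq2) that edgeR did not call (adjusted p 0.208). TDG iKO had 3490.4 and 10233 at 0 h and 8996 and 25119.8 at 6 h, a change of 1.31 ± 0.59 (adjusted p 0.222 by DESeq2). Replicate 2 of TDG iKO at 0 h was above replicate 1 at 6 h, so the groups overlapped. With the replicate block C3 passed in both genotypes, with DESeq2 adjusted p of 2.17e-07 in WT and 9.89e-05 in TDG iKO. Within replicates 1 and 2 it rose by 1.5 and 1.92 on the log2 scale in WT and by 1.37 and 1.30 in TDG iKO. Leaving out any of the 4 WT libraries ended the WT call (changes of 1.22 to 2.16), and without TDG iKO replicate 1 at 6 h or replicate 2 at 0 h the TDG iKO change passed (1.88 and 2.28). The genotype difference at 0 h was 0.41 (95% interval -0.74 to 1.57) and turned to -0.55 without TDG iKO replicate 2.

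Cfb, the protease subunit of the alternative pathway, rose with KLA like C3 but was lower in TET iTKO. In the Tet cohort its counts were 34013 and 34699 in WT and 29787 and 22716 in TET iTKO at 0 h and 56812 and 65465 in WT and 48564 and 40889.6 in TET iTKO at 6 h. Each TET iTKO library was below both WT libraries of its time. The genotype changes were -0.39 ± 0.13 (adjusted p 0.0486 by DESeq2) at 0 h and -0.45 ± 0.13 (adjusted p 0.0164 by DESeq2) at 6 h, and edgeR called neither (adjusted p 0.128 and 0.0885). The 0 h call was also lost without either WT library or TET iTKO replicate 2 (changes of -0.41, -0.38 and -0.21, DESeq2 adjusted p 0.292, 0.323 and 0.874), and the 6 h call without TET iTKO replicate 2 or WT replicate 2 (changes of -0.33 and -0.34, adjusted p 0.397 and 0.229).

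The KLA response of Cfb passed in both genotypes of the Tet cohort. It was 0.83 ± 0.13 (adjusted p 7.21e-09 by DESeq2) in WT and 0.77 ± 0.13 (adjusted p 1.17e-07 by DESeq2) in TET iTKO, and each 6 h library was above both 0 h libraries of its genotype. WT of the Tdg cohort had 9281 and 16466 at 0 h and 15125 and 31742 at 6 h, and TDG iKO had 9611 and 16891 at 0 h and 14355 and 36003 at 6 h. There replicate 2 at 0 h was above replicate 1 at 6 h in both genotypes, and the changes of 0.86 and 0.93 did not pass without and passed with the replicate block (DESeq2 adjusted p 0.00474 and 0.00412).

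**Figure D3:**
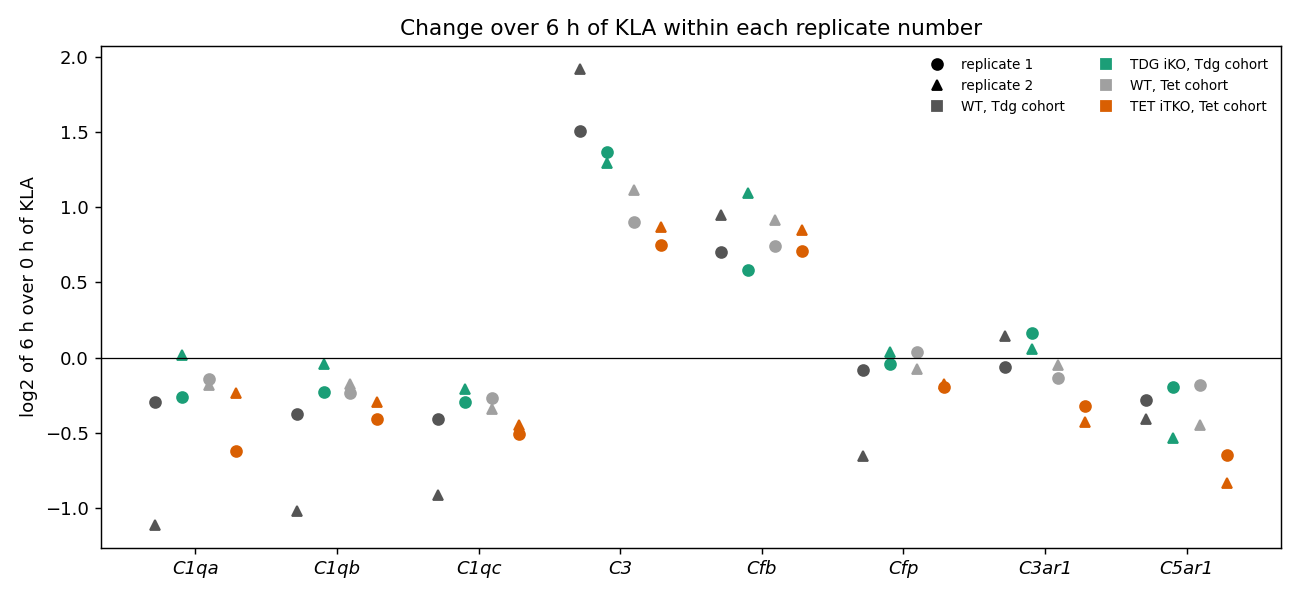
Log2 of the normalised count at 6 h over that at 0 h of KLA (vertical axis) for each complement gene, computed within replicate 1 (circles) and within replicate 2 (triangles) of WT and knockout BMDMs of each cohort. C3 and Cfb lie above 0 in all 8 pairs of libraries, and the C1q genes and C5ar1 lie below 0 except C1qa in TDG iKO replicate 2 at 0.018.

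The balance of C3 and Cfb within a library separated the genotypes of the Tet cohort. The ratio of C3 to Cfb counts per exon base was 0.629, 0.712, 0.649 and 0.724 in the TET iTKO libraries and 0.307, 0.273, 0.343 and 0.313 in WT (replicates 1 and 2 at 0 h, then at 6 h). The lowest TET iTKO ratio was above the highest WT ratio. Tdg cohort libraries had a ratio of 0.200 to 0.250 in 3 of 4 libraries at 0 h, 0.334 in TDG iKO replicate 2 at 0 h and 0.345 to 0.434 at 6 h.

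**Figure D4:**
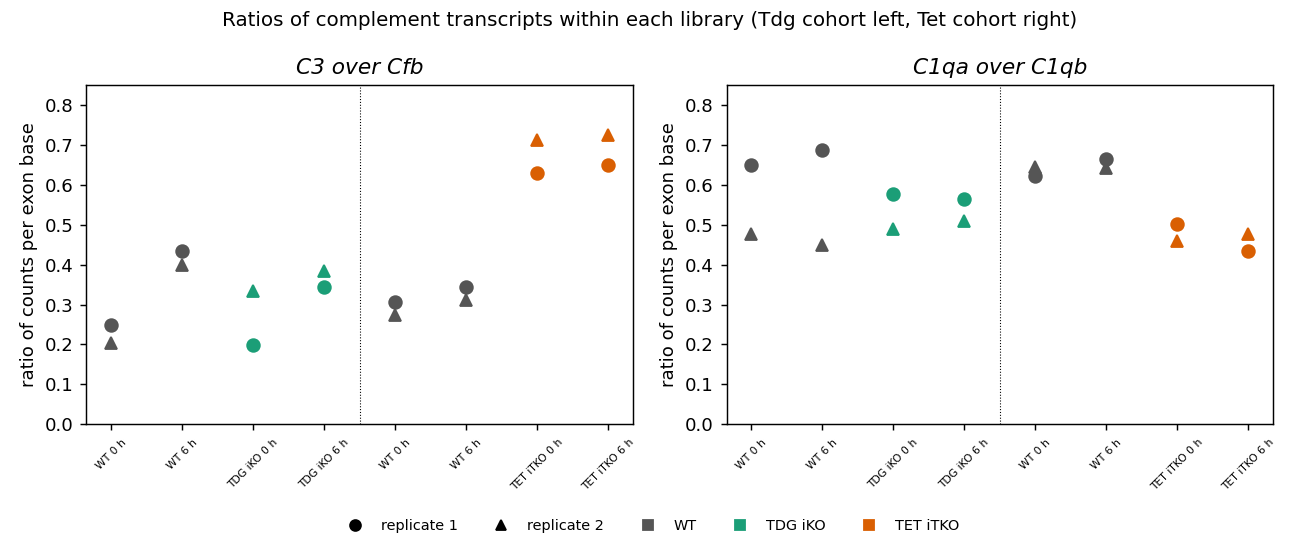
Ratio of counts per exon base of C3 to Cfb (left) and of C1qa to C1qb (right) in each of the 16 macrophage libraries, by genotype and hours of KLA, with circles for replicate 1 and triangles for replicate 2. The C3 to Cfb ratio of the 4 TET iTKO libraries (0.629 to 0.724) lies above the other 12 libraries, and their C1qa to C1qb ratio (0.434 to 0.502) lies below the 4 WT libraries of the same cohort.

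Cfp, which encodes properdin, passed in none of the comparisons in the fits of whole cohorts. In the Tet cohort it had 9739.6 and 8963 normalised counts in WT and 10662 and 11948 in TET iTKO at 0 h, without overlap, and a difference of 0.27 ± 0.12 (adjusted p 0.165 by DESeq2) that passed in a fit of those 4 libraries alone (DESeq2 adjusted p 0.0495). At 6 h the counts were 9983 and 8510.0 in WT and 9325 and 10595.5 in TET iTKO, which overlapped, and the difference was 0.11 ± 0.12 (adjusted p 0.78 by DESeq2). Cfp is X-linked, and Xist had 0 counts in WT replicate 1 of the Tet cohort at both times and 17088 to 22210 in the other 6 libraries. Without that WT library the Cfp difference was 0.33 at 0 h and 0.23 at 6 h (DESeq2 adjusted p 0.377 and 0.542).

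Cfp of the Tdg cohort was lower in TDG iKO than in WT at 0 h, 5279 and 4559 against 5796 and 7778, without overlap, but the difference of -0.46 ± 0.27 (adjusted p 1.00 by DESeq2) did not pass. The Tet difference minus the Tdg difference at 0 h was 0.74 ± 0.26 (adjusted p 0.354 by DESeq2) in the fit of all 16 libraries. Without WT replicate 1 of the Tdg cohort at 0 h the difference was 0.95. That fit left 1 library in the group, the one with the fewest assigned counts in BMDMs (4982950).

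C3ar1, the receptor of the C3a fragment, passed between genotypes at 6 h and not at 0 h. At 0 h in the Tet cohort it had 26624 and 29317 normalised counts in WT and 26064 and 27723 in TET iTKO, which overlapped, with a difference of -0.057 ± 0.11 (adjusted p 0.917 by DESeq2). At 6 h it had 24206 and 28277 in WT and 20861 and 20644 in TET iTKO, a change of -0.34 ± 0.11 (adjusted p 0.0284 by DESeq2) without overlap. That call was not made by edgeR (adjusted p 0.0799) and was lost without either TET iTKO library or WT replicate 2 (changes of -0.35, -0.33 and -0.22, DESeq2 adjusted p 0.126, 0.239 and 0.350). Under KLA C3ar1 fell in TET iTKO, with a log2 change of -0.37 ± 0.11 (adjusted p 0.00291 by DESeq2) that was lost without TET iTKO replicate 2 at 0 h (change -0.33, adjusted p 0.101), and the WT value was -0.092 (SE 0.11). Its KLA changes in the Tdg cohort were 0.038 in WT and 0.11 in TDG iKO.

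C5ar1, the receptor of C5a and a chemoattractant receptor of myeloid cells, was lower in TET iTKO at 6 h. The counts were 7274 and 5881 in WT and 4190.1 and 3444 in TET iTKO, 0.58 of the WT level, a change of -0.79 ± 0.13 (adjusted p 1.72e-07 by DESeq2). At 0 h they were 8243 and 8024 in WT and 6560.0 and 6142 in TET iTKO, a difference of -0.36 ± 0.13 (adjusted p 0.0636 by DESeq2) that passed with the replicate block (DESeq2 adjusted p 0.0145) and in a fit of those 4 libraries alone (adjusted p 0.00172), although same-numbered libraries of the 2 genotypes did not deviate together. TET iTKO was below WT without overlap at both times.

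C5ar1 fell under KLA in TET iTKO, with a log2 change of -0.73 ± 0.13 (adjusted p 1.41e-07 by DESeq2), and in WT of the Tet cohort the change was -0.31 ± 0.13 (adjusted p 0.0663 by DESeq2). The WT change passed with the block nested in genotype (DESeq2 adjusted p 0.00317) and without WT replicate 1 at 6 h (-0.47, adjusted p 0.00547). The response of C5ar1 in TET iTKO differed from that in WT by -0.43 (SE 0.18, DESeq2 adjusted p 0.779), the largest of the 8 in size. It was the member that passed with the nested block (adjusted p 0.0434), and the log2 differences of the 8 lay between -0.43 and -0.063 with 95% intervals from -0.78 to 0.31. C5ar1 in the Tdg cohort had 5620.5 and 4802 normalised counts in WT and 5022 and 4477 in TDG iKO at 0 h and 4622 and 3616 in WT and 4385 and 3091 in TDG iKO at 6 h. In each genotype its 6 h libraries were below its 0 h libraries, and the KLA changes of -0.34 and -0.35 did not pass.

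The TDG iKO values did not bound the differences tightly. At 6 h the 8 log2 differences between TDG iKO and WT lay between -0.14 and 0.10, and their 95% intervals reached from -1.19 to 1.15. The change of the KLA response in TDG iKO lay between -0.45 and 0.54 with intervals from -2.08 to 1.64, and 0 of the 8 passed (percent called 0). A direct test of the Tet difference minus the Tdg difference passed for 0 of the 8 at 0 h (0.340% of all genes) and for 0 at 6 h (0.0888%). At 6 h that difference was -1.29 ± 0.47 (adjusted p 0.687 by DESeq2) for C1qa and -0.92 ± 0.31 (adjusted p 0.56 by DESeq2) for C1qc. With the replicate block both passed, at -1.35 and -0.93 (DESeq2 adjusted p 0.00114 and 0.00347). That block also covered the Tet cohort, where same-numbered libraries of the 2 genotypes did not deviate together. Without WT replicate 1 of the Tdg cohort at 6 h the differences were -1.92 and -1.24.

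Other complement genes were read from a list of 45, chosen with earlier results known, of which 44 had a row in the tables. Many are made mainly by liver and were too low to be tested in BMDMs. In TET iTKO against WT, 3 rose and 1 fell of 27 with an adjusted p at 0 h (14.8%, against 7.56% of all genes), and 1 rose and 2 fell of 23 at 6 h (13.0% against 6.45%). Cd55, which speeds the decay of the C3-cleaving enzymes on the cell's own surface, rose by 1.49 (SE 0.16, DESeq2 adjusted p 2.25e-17) at 0 h and 1.40 (SE 0.16, adjusted p 4.5e-15) at 6 h. Its neighbour Daf2 is a near copy, so reads may be split between them. Calr, a partner of C1q at cell surfaces, fell by 0.42 and 0.40, and the edgeR adjusted p was 0.0314 and 0.044.

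Under KLA 2 rose and 4 fell of 27 in WT of the Tet cohort (22.2%, against 23.6% of all genes) and 0 rose and 4 fell of 19 in TET iTKO (21.1% against 24.7%). In the Tdg cohort 0 rose and 2 fell of 19 in WT (10.5% against 8.73%) and 0 rose and 1 fell of 22 in TDG iKO (4.55% against 6.95%). These shares were near those of all genes. C5ar2, the other receptor of C5a, fell in all 4 genotype groups, by 1.40 in WT and 2.18 in TET iTKO of the Tet cohort and by 1.93 in WT and 2.02 in TDG iKO of the Tdg cohort (log2 scale, DESeq2 adjusted p at most 7.11e-05). It was higher in TET iTKO than in WT at 0 h (0.91, SE 0.20, DESeq2 adjusted p 0.000158). Cd93, which was first described as a receptor of C1q, fell by 1.64 in WT and 1.57 in TET iTKO of the Tet cohort, and the Tdg cohort values of -1.0 in WT and -1.15 in TDG iKO did not pass. Lrp1, an endocytic receptor that works with calreticulin, fell by 0.68 in WT and 0.91 in TET iTKO of the Tet cohort, with values of 0.29 in WT and -1.15 in TDG iKO of the Tdg cohort that did not pass, and was lower in TET iTKO at 6 h (-0.58, SE 0.14, DESeq2 adjusted p 0.00124, edgeR adjusted p 0.0516). Itgam, the alpha chain of complement receptor 3, was higher in TET iTKO at 0 h (0.30, SE 0.098, DESeq2 adjusted p 0.0351, edgeR adjusted p 0.0964). In WT of the Tet cohort C1ra (0.55) and Cr1l (0.30) rose and C1qbp fell by 0.36, in TET iTKO Cd59a fell by 0.87, and in WT of the Tdg cohort Fcna fell by 1.45, a call that edgeR did not make (adjusted p 0.114). C1ra and Cd59a have near copies.

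The genes most like each member across the 8 BMDM groups were taken by the root mean square (RMS) distance of centred log2 group means, over 9474 genes. The means came from the fit of all 16 libraries, so differences between the cohorts enter the distances. C1qb and C1qc were each other's nearest gene at 0.065, and next came Galns for both. C1qa was nearest to Ly86 (0.115), then to C1qb (0.165) and C1qc (0.185). After Galns came Folr2 for C1qb (0.134) and Spp1 for C1qc (0.114). C3, with the widest span of group means of the members (2.81), had its nearest genes farther off: Zfp503 (0.254), Ahrr (0.261) and Fam20c (0.269). Cfb was nearest to Ampd3 (0.130), Pgap1 (0.133) and Papss2 (0.134), and genes near C5ar1 included Evl (0.076) and Cd151 (0.106). The group means of Cfp (0.56) and C3ar1 (0.84) spanned less than 1 on the log2 scale, and no genes were named for them.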

How the data were processed

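The authors aligned 50-base paired-end reads of directional libraries to mouse build mm9 with HISAT2 and counted pairs per gene with HTSeq. Versions, the gene annotation and the strand setting are not given in the sources used here. The deposited values are raw counts for 23420 symbols, with 5 tallies of unassigned pairs left out here. In BMDMs 53.4% to 67.2% of pairs were assigned.

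Groups came from the labels. Tests were Wald tests in DESeq2 1.42.0 (R 4.3.3) at a threshold of 0.05, since the study used DESeq2 1.30.0. Each cohort of 8 BMDM libraries was fitted together, and all 16 for the difference of Tet and Tdg effects. P-values were adjusted by Benjamini-Hochberg over all genes. Alternatives were edgeR 4.0.16, TMM factors, a filter of 10 counts in 2 libraries, replicate blocks, other sets of libraries and leaving out each library. Both tests were tested on simulated data. Members and lists were chosen with earlier results of these data known. The text names all 8 members, and those other complement genes that passed and averaged 50 or more normalised counts, up to 6 per comparison. A gene close in pattern to C5ar1 is not reported here.

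Pairing rests on replicate numbers that the labels give. Deviations of same-numbered libraries from group means correlated at 0.313 to 0.823 across genes in the Tdg cohort. In the Tet cohort they correlated at 0.391 and 0.505 within a genotype and at 0.0175 and 0.065 between genotypes, so there the block nested in genotype was read for KLA.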

Additional observations from a re-analysis of the deposited data

Results flagged for a closer look

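The 8 Th2 libraries (4 TDG iKO and 4 WT) entered no comparison above, and C3 and Cfp had signal in all of them. C3 had 41 to 105 counts there, from 2.36 to 10.3 CPM with a median of 5.05, whereas the median in BMDMs was 1523 CPM. Cfp had 15 to 158 counts, from 1.96 to 5.93 CPM with a median of 3.22, against 553 CPM in BMDMs. Both stood above the floor of 3 counts in every library. C1qa, C1qb and C1qc had 0 counts in all 8, C3ar1 at most 2, C5ar1 at most 1 and Cfb at most 4. These levels were not compared between genotypes, and their source was not tested.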

How the results depend on the processing

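Of the values reported for single members, those passing in both DESeq2 and edgeR held their call when TMM factors or the filter on low counts was used. Over the 57 values, settings other than leaving out a library gave 368 values, of which 20 lost a call, 23 gained one and 0 changed sign. The number of members called, with the share of all genes called in the same setting, moved most in these cases. In the KLA response of WT in the Tdg cohort (1, 8.73%) edgeR called 0 (3.71%), the replicate block 5 (15.7%), the nested replicate block 5 (16.1%) and the fit of all 16 libraries 3 (20.4%). In that of TDG iKO (0, 6.95%) the replicate block called 2 (11.9%) and the nested one 2 (11.4%). In that of WT in the Tet cohort (3, 23.6%) the nested replicate block called 5 (26.8%) and the fit of 16 called 0 (12.8%). In that of TET iTKO (7, 24.7%) the fit of 16 called 2 (11.3%). For TET iTKO against WT at 0 h (5, 7.56%) the fit of 16 called 3 (1.84%), edgeR 4 (6.01%) and the fit of the 4 libraries 7 (9.59%), and at 6 h (7, 6.45%) they called 4 (1.16%), 5 (4.68%) and 6 (4.50%). The spread of the Tdg cohort enters the fit of 16. For the changed KLA response of TET iTKO (0, 0.429%) the nested replicate block called 1 (2.51%). For the TET against TDG effect (0 at both times) the replicate block called 2 at 6 h (0.815%). Leaving out a library turned the sign only of values that had not passed: with ranges of -0.045 to 0.12 for C3ar1 in WT of the Tdg cohort under KLA, -0.49 to 0.28 for C1qa, -0.39 to 0.13 for C1qb and -0.11 to 0.10 for Cfp in TDG iKO under KLA, -0.55 to 0.99 for C3 in TDG iKO at 0 h, -0.13 to 0.094 for Cfp and -0.21 to 0.017 for C3ar1 in WT of the Tet cohort under KLA, -0.13 to 0.012 for C3ar1 in TET iTKO at 0 h and -0.0029 to 0.23 for Cfp at 6 h. With 2 libraries a group, a lone library left in an arm was assumed to vary like the others. Counts of members called are not given for such fits.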

Other observations

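The 0 h libraries of the 2 WT groups can be set side by side only as shares of their own totals. C3 and Cfb together took 0.135% and 0.197% of the assigned counts in unstimulated WT libraries of the Tdg cohort and 0.326% and 0.316% in those of the Tet cohort. The cohort and any other difference between these libraries cannot be told apart.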
